A study of Danio rerio with 6 samples.

Results

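All rows that the deposited tables place on the mitochondrial chromosome, MT, were taken as the mitochondrially encoded genes, which gave 37 of 31452 genes listed. Of these rows, 13 carry the symbols of the protein-coding genes and 24 carry only placeholder names of the form AC024175 with a number. RefSeq's zebrafish mitochondrial annotation (assembly GRCz12tu) also holds 37 genes, namely 13 protein-coding genes, 2 ribosomal RNAs and 22 transfer RNAs. The 24 placeholder rows thus match the ribosomal and transfer RNA genes in number, but the tables used here do not say which row is which. They are called the unnamed rows, and the ribosomal and transfer RNAs could not be described apart.

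RNA was sequenced from whole zebrafish embryos at 3 days post fertilisation, with 15 embryos in each of 6 pools. In 3 pools the embryos made EWSR1-ERG, a fusion of an RNA-binding protein with an ETS transcription factor that occurs in Ewing sarcoma, in their neurons. They came from Tg(14xUAS:GFP-EWSR1-ERG) fish, in which the fusion is tagged with GFP and needs Gal4 for its expression, crossed to the enhancer trap driver Et(E1b:Gal4-VP16)s1101t with the reporter Tg(UAS:Kaede) s1999t. The other 3 pools were wild-type siblings described as controls that did not express the fusion. The labels name the same cross for both groups, and they do not say whether the siblings carried the driver or the reporter. The tables list no row for the fusion, GFP, Kaede or Gal4, so the labels could not be checked against the transgene. Neuronal expression was driven in a part of each animal while the RNA came from all of it. The counts of a whole embryo cannot tell fewer cells of a type apart from less RNA per cell. The labels call the pools biological replicas without saying whether they came from separate clutches. The p-values thus set the difference between groups only against the spread among these 6 pools. Whether that spread holds differences between clutches, or is mostly technical, is not known. Library totals ran from 4771843 to 13338802 counts, and the deepest library, EWSR1-ERG replicate 3, was named with another sequencing lane than the other 5.

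Mitochondrial DNA is a small circle present in many copies per cell. It encodes core subunits of complexes I, III, IV and V of oxidative phosphorylation, while the other subunits and all of complex II are encoded in the nucleus. Both strands are transcribed as long precursors that run through many genes. Transfer RNAs lie between most of the other genes, and cutting them out releases the messenger RNAs and ribosomal RNAs. All protein-coding genes but mt-nd6 are read from the same strand, called here the heavy-strand transcript. Tissues with a high energy demand, such as heart, muscle, photoreceptors and neurons, hold much mitochondrial RNA.

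Mitochondrially encoded RNA was lower in embryos with neuronal EWSR1-ERG. Counts on all MT rows made up 2.64%, 2.99% and 2.82% of the library in the EWSR1-ERG pools, against 3.87%, 4.03% and 4.35% in the wild-type pools. The groups did not overlap, and the share was 1.45-fold lower in EWSR1-ERG pools. Nearly all of it lay on protein-coding genes, which took 2.74% ± 0.171 of the counts in EWSR1-ERG pools and 3.98% ± 0.234 in wild-type pools (SD, n = 3 each). The unnamed rows took 0.0730%, 0.0816% and 0.0792% of the counts in EWSR1-ERG pools, against 0.0947%, 0.10% and 0.112% in wild-type pools. Whichever of them are the ribosomal RNAs, both together thus had no more than these shares. The labels do not say whether poly(A) RNA was selected. No test is given for these shares, because the genes were chosen with earlier results known.

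**Figure D1:**
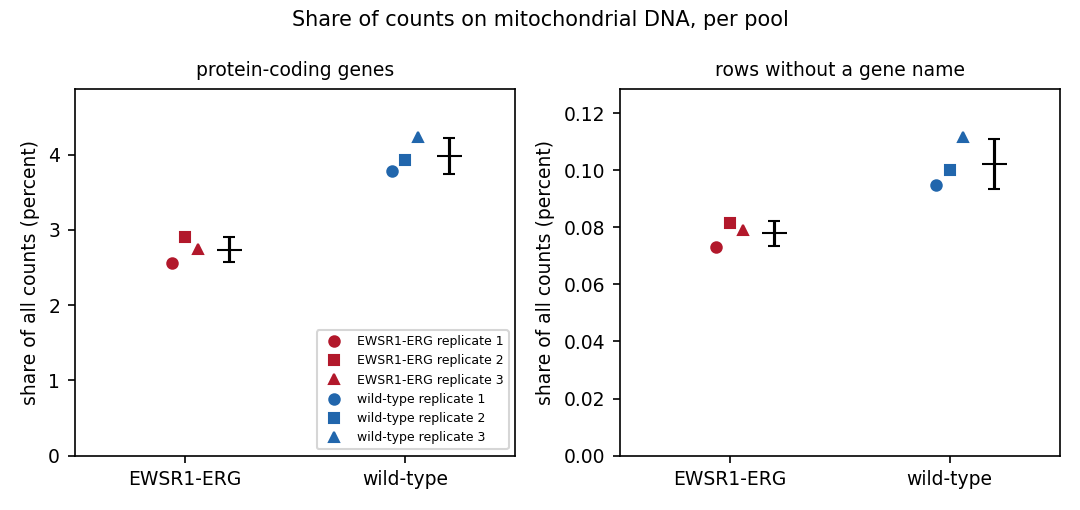
Share of all counts, in percent, on the 13 protein-coding mitochondrial genes (left) and on the 24 unnamed rows (right), with 1 point per pool and the mean ± SD (n = 3) beside the points. Both shares are lower in every EWSR1-ERG pool than in every wild-type pool.

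In edgeR's quasi-likelihood F test, with p adjusted by Benjamini-Hochberg over all tested genes, 11 of the 13 protein-coding genes were lower in EWSR1-ERG pools and none was higher. The threshold was an adjusted p of 0.05. Of all 17557 genes tested, 9.87% were called lower and 7.46% higher. None of the 13 was higher at an unadjusted p under 0.05 either, nor was any called higher by DESeq2 or limma-voom. All 13 had log2 fold changes below 0, from -0.83 to -0.41 with a median of -0.60, which is 1.52-fold lower, while the median over all genes tested was 0.00465. In all 13 the 3 EWSR1-ERG pools stood below the 3 wild-type pools, as was the case in this direction for 18.0% of all genes tested. Counts were ample, since the smallest for any of the 13 in any pool was 997. Levels below are CPM (counts scaled to a common library size). Since they are not corrected for gene length, they are compared between groups and not between genes. Where rows are ranked by CPM, the rank is one of counts only.

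**Figure D2:**
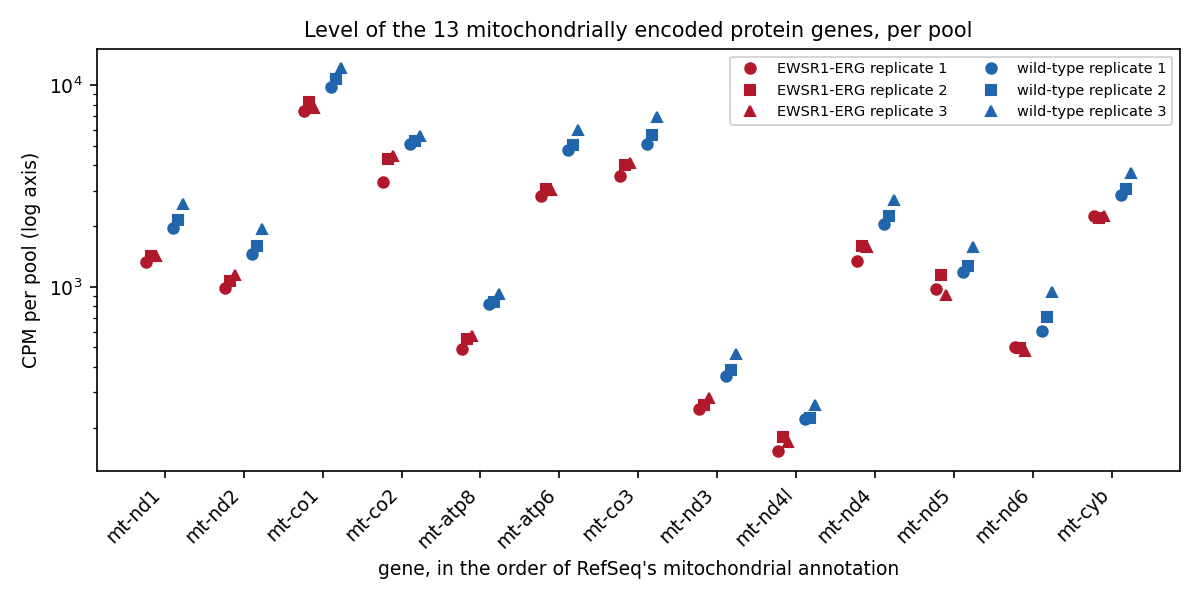
CPM of each protein-coding mitochondrial gene in each pool on a log axis, with genes in the order of the RefSeq annotation, EWSR1-ERG pools left and wild-type pools right at each gene. In each of the 13 genes the 3 EWSR1-ERG pools lie below the 3 wild-type pools, and wild-type replicate 3 is the highest pool.

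Complex I, which takes electrons from NADH, has 7 subunits encoded by mitochondrial DNA, and 6 of their genes fell. Expression of mt-nd1 (ENSDARG00000063895), whose product lies where the membrane arm meets the peripheral arm, was 1323, 1422 and 1415 CPM in EWSR1-ERG pools, against 1952, 2137 and 2570 CPM in wild-type pools. This was 1.60-fold lower (log2 fold change -0.68, SE 0.132, edgeR adjusted p = 0.00274). For mt-nd2 (ENSDARG00000063899), a pump subunit of the membrane arm, the EWSR1-ERG pools had 989.4, 1071 and 1145 CPM and the wild-type pools 1453, 1586 and 1942 CPM. The gap between the groups, from 1145 CPM in the highest EWSR1-ERG pool to 1453 CPM in the lowest wild-type pool, was wider than the range within the EWSR1-ERG group and narrower than that within the wild-type group (log2 fold change -0.64, SE 0.135, edgeR adjusted p = 0.00493).

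The other complex I genes lie in the later part of the map. The small membrane subunit gene mt-nd3 (ENSDARG00000063914) stood at 249, 260 and 280.1 CPM in EWSR1-ERG pools and at 363, 388 and 462 CPM in wild-type pools (log2 fold change -0.62, SE 0.119, edgeR adjusted p = 0.00244). The pump subunit gene mt-nd4 (ENSDARG00000063917) had 1348, 1602 and 1581 CPM in EWSR1-ERG pools, against 2038, 2250 and 2690 CPM in wild-type pools (-0.62, SE 0.138, edgeR adjusted p = 0.00657). Its neighbour mt-nd4l (ENSDARG00000063916), whose reading frame runs into that of mt-nd4, had 153, 179 and 170 CPM in EWSR1-ERG pools and 222, 224 and 258 CPM in wild-type pools (-0.49, SE 0.111, edgeR adjusted p = 0.00751). In both genes EWSR1-ERG replicate 1 was the lowest of all 6 pools. The member that did not pass was mt-nd5 (ENSDARG00000063921), a pump subunit at the far end of the membrane arm. It had 979 CPM, 1151 CPM and 913 CPM in EWSR1-ERG pools and 1189, 1268 and 1575 CPM in wild-type pools. The groups did not overlap, yet the nearest pools of the groups were only 1151 CPM and 1189 CPM (log2 fold change -0.41, SE 0.14, edgeR adjusted p = 0.0605). It was called lower by DESeq2 and by edgeR with no filter on low counts.

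The gene mt-nd6 (ENSDARG00000063922) is the protein-coding gene on the opposite strand and neighbours mt-nd5. Its levels were 504, 499 and 479 CPM in EWSR1-ERG pools, against 603, 705 and 938 CPM in wild-type pools. The EWSR1-ERG pools lay close together, while the wild-type pools spread over more than the gap between the groups (log2 fold change -0.60, SE 0.147, edgeR adjusted p = 0.012). The labels give no strand setting for the counting, and reads of mt-nd6 and of RNA from the other strand cannot be told apart. Relative to the 12 heavy-strand genes, mt-nd6 had 2.02, 1.78 and 1.73 counts per 100 in EWSR1-ERG pools, against 1.69, 1.83 and 2.10 counts per 100 in wild-type pools. The groups overlapped, with a log2 ratio of -0.02 between them (two-sided exact permutation p = 0.8). With 3 pools against 3, no such test can give a p below 0.1. Without EWSR1-ERG replicate 2, EWSR1-ERG replicate 3 or wild-type replicate 3 the sign of this ratio turned, at 0.00497, 0.0234 and 0.0646.

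In complex III the only mitochondrially encoded subunit is cytochrome b. Its gene mt-cyb (ENSDARG00000063924) fell to 2236, 2188 and 2255 CPM in EWSR1-ERG pools, against 2853, 3070 and 3660 CPM in wild-type pools. The EWSR1-ERG pools differed little among themselves (log2 fold change -0.52, SE 0.131, edgeR adjusted p = 0.0141). The call ended without EWSR1-ERG replicate 2 (log2 fold change -0.50) or wild-type replicate 2 (-0.55).

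Complex IV, cytochrome c oxidase, has 3 core subunits encoded in mitochondria, which include the heme and copper centres. The gene mt-co1 (ENSDARG00000063905), for the catalytic subunit, had 7479, 8252 and 7701 CPM in EWSR1-ERG pools, against 9775, 10677 and 12117 CPM in wild-type pools. By mean CPM, uncorrected for gene length, it ranked 6 among all genes tested. Its fold change was among the smaller ones of the protein-coding genes (log2 fold change -0.48, SE 0.14, edgeR adjusted p = 0.0305). The call ended without any of the EWSR1-ERG pools (replicate 1 -0.44, replicate 2 -0.51, replicate 3 -0.46) or without wild-type replicate 2 (-0.49). The gene mt-co3 (ENSDARG00000063912) stood at 3564, 4017 and 4109 CPM in EWSR1-ERG pools and at 5110, 5677 and 6933 CPM in wild-type pools (-0.60, SE 0.146, edgeR adjusted p = 0.0112). Its call ended without wild-type replicate 2 (-0.63). The gene mt-co2 (ENSDARG00000063908), whose product accepts electrons from cytochrome c, had 3296, 4284 and 4437 CPM in EWSR1-ERG pools and 5105, 5306 and 5570 CPM in wild-type pools. EWSR1-ERG replicate 1 lay well below the others, and the gene did not pass (-0.41, SE 0.143, edgeR adjusted p = 0.0632). It was called lower by DESeq2, by limma-voom and by edgeR with a replicate block.

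The membrane part of complex V, ATP synthase, includes the products of mt-atp6 and mt-atp8, whose reading frames overlap and which share a messenger RNA. The gene mt-atp6 (ENSDARG00000063911) had 2824, 3066 and 3016 CPM in EWSR1-ERG pools, against 4774, 5047 and 6022 CPM in wild-type pools. At 1.78-fold lower it had the largest decrease of the 13 genes (log2 fold change -0.83, SE 0.135, edgeR adjusted p = 0.000703). The gene mt-atp8 (ENSDARG00000063910) had 490.3, 554 and 572 CPM in EWSR1-ERG pools, against 821, 844 and 917 CPM in wild-type pools, 1.60-fold lower (-0.68, SE 0.116, edgeR adjusted p = 0.00106). Both calls held without any single library.

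**Figure D3:**
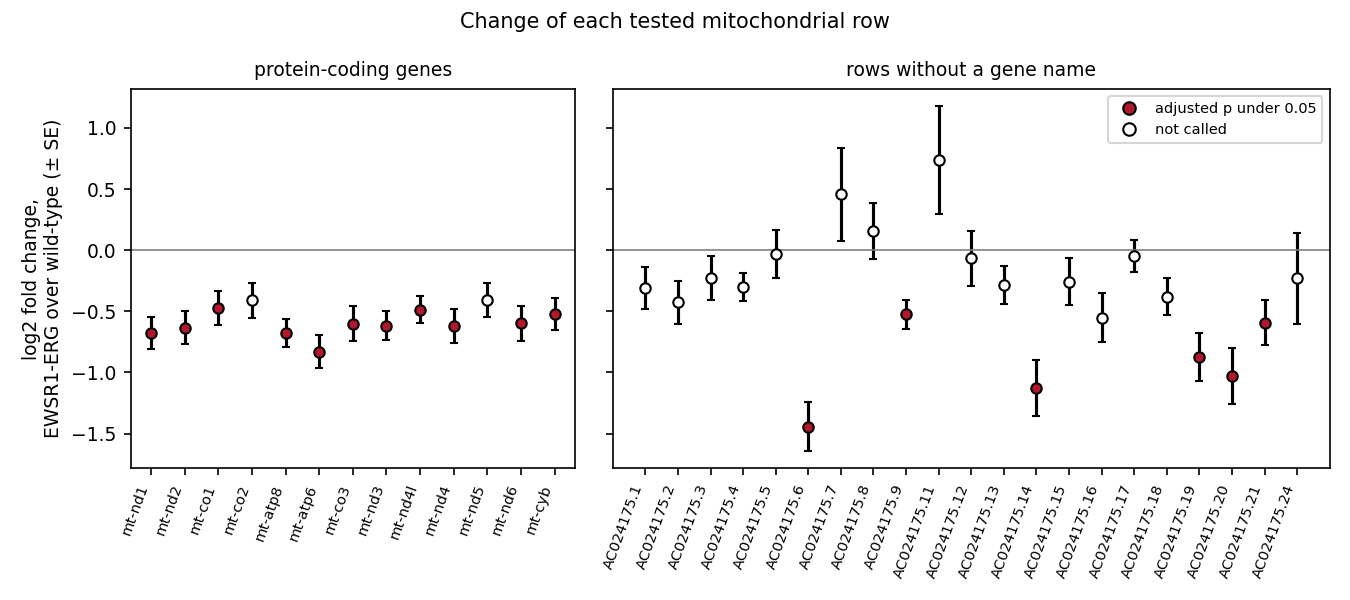
Log2 fold change of EWSR1-ERG over wild-type, with its SE, for the 13 protein-coding genes in RefSeq order (left) and the 21 tested unnamed rows (right); filled points had an edgeR adjusted p under 0.05. The protein-coding genes lie between -0.83 and -0.41, and the unnamed rows between -1.44 and 0.74.

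The proportions among the protein-coding genes were compared next. As a share of the counts on these 13 genes, mt-atp6 took 11.1%, 10.7% and 10.7% in EWSR1-ERG pools, against 13.2%, 12.9% and 13.2% in wild-type pools. The 2 groups stood well apart from each other, with little spread within either (log2 ratio -0.27). The share of mt-nd1 was also lower without overlap, at 5.20%, 4.98% and 5.04% in EWSR1-ERG pools and 5.38%, 5.45% and 5.63% in wild-type pools (-0.11). That of mt-co1 was higher without overlap, at 29.4%, 28.9% and 27.4% in EWSR1-ERG pools and 27.0%, 27.3% and 26.5% in wild-type pools (0.09). Its nearest pools were 27.4% and 27.3%. Shares of one total depend on each other, so the shares of mt-atp6 and mt-co1 cannot be read as separate results. Whether the lower share of mt-atp6 accounts for the higher share of mt-co1 was not tested. In the other 10 genes the shares overlapped between groups. Each of the 3 had a two-sided exact permutation p of 0.1, the smallest that 3 pools against 3 can give, and an adjusted p of 0.39 over the 13 genes. None of these differences in proportion thus passed a test.

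Neighbouring genes were set side by side. Those on the same strand come from a shared precursor, while mt-nd5 and mt-nd6 lie on opposite strands. The RefSeq order places mt-atp8, mt-atp6 and mt-co3 next to each other with no transfer RNA between them, and likewise mt-nd4l and mt-nd4. For every 100 counts of mt-co3 there were 79.2, 76.3 and 73.4 counts of mt-atp6 in EWSR1-ERG pools, against 93.4, 88.9 and 86.9 in wild-type pools. The ratio of these direct neighbours was lower in every EWSR1-ERG pool than in every wild-type pool (log2 ratio -0.23, two-sided exact permutation p = 0.1, adjusted p = 0.2 over 6 ratios compared). For every 100 counts of mt-atp6 there were 17.4, 18.1 and 19.0 counts of mt-atp8 in EWSR1-ERG pools, against 17.2, 16.7 and 15.2 in wild-type pools (0.15, exact permutation p = 0.1, adjusted p = 0.2). The groups did not overlap, although the nearest pools were 17.4 and 17.2. For mt-nd4l per 100 counts of mt-nd4 the groups overlapped, at 11.3, 11.2 and 10.7 in EWSR1-ERG pools and 10.9, 9.96 and 9.61 in wild-type pools (0.13, exact permutation p = 0.2, adjusted p = 0.3). The same held for mt-nd6 per 100 counts of mt-nd5, at 51.5, 43.4 and 52.4 in EWSR1-ERG pools and 50.7, 55.6 and 59.6 in wild-type pools (-0.17, exact permutation p = 0.3, adjusted p = 0.36). Reads over the overlap of 2 reading frames could have been counted for either gene, and the labels give no counting rule.

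Among the unnamed rows, 21 of 24 passed the filter on low counts, and 6 were lower in EWSR1-ERG pools by edgeR, against 9.87% of all genes tested. None was higher by edgeR, DESeq2 or limma-voom, nor at an unadjusted p under 0.05. In 8 of the 21 all EWSR1-ERG pools lay below all wild-type pools, as in 18.0% of all genes tested. The most abundant row, AC024175.9 (ENSDARG00000081369), had 291, 311 and 323 CPM in EWSR1-ERG pools, against 395, 427 and 509 CPM in wild-type pools. Its decrease lay within the range of the protein-coding genes (log2 fold change -0.53, SE 0.12, edgeR adjusted p = 0.00773). The next, AC024175.4 (ENSDARG00000080337), had 149, 172 and 148 CPM in EWSR1-ERG pools and 177, 188 and 214 CPM in wild-type pools, without overlap, and did not pass (-0.30, SE 0.112, edgeR adjusted p = 0.0818). The third, AC024175.17 (ENSDARG00000082753), had 91.3, 102 and 94.1 CPM in EWSR1-ERG pools, within the range of the wild-type pools at 87.9, 87.5 and 122 CPM (-0.05, SE 0.131, edgeR adjusted p = 0.846). Without wild-type replicate 3 its log2 fold change was 0.13. These 3 rows held 69.8% to 73.5% of the counts on unnamed rows in EWSR1-ERG pools and 70.2% to 72.6% in wild-type pools.

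Some rows with few counts had larger decreases than any protein-coding gene. The largest was in AC024175.6 (ENSDARG00000080630), at 4.13, 5.95 and 5.53 CPM in EWSR1-ERG pools, against 12.5, 16.1 and 14.2 CPM in wild-type pools. It was 2.72-fold lower (log2 fold change -1.44, SE 0.199, edgeR adjusted p = 0.000187), and the call held without any single library, at -1.54 to -1.32. AC024175.14 (ENSDARG00000082084) had 6.43, 6.30 and 5.53 CPM in EWSR1-ERG pools, against 9.31, 17.2 and 13.1 CPM in wild-type pools (-1.13, SE 0.228, edgeR adjusted p = 0.0037). AC024175.20 (ENSDARG00000083118) had 6.43, 7.00 and 12.2 CPM in EWSR1-ERG pools and 15.7, 19.0 and 20.6 CPM in wild-type pools (-1.03, SE 0.227, edgeR adjusted p = 0.00715). Here EWSR1-ERG replicate 3 lay nearest to the wild-type pools. AC024175.19 (ENSDARG00000083046) had 6.89, 11.2 and 10.4 CPM in EWSR1-ERG pools and 14.2, 19.2 and 19.4 CPM in wild-type pools (-0.87, SE 0.199, edgeR adjusted p = 0.00765), a call that ended without wild-type replicate 2 (-0.81).

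The sixth row called, AC024175.21 (ENSDARG00000083312), overlapped between groups. It had 36.3, 30.3 and 37.63 CPM in EWSR1-ERG pools and 37.59, 53.8 and 67.5 CPM in wild-type pools (log2 fold change -0.59, SE 0.182, edgeR adjusted p = 0.044). Its call ended without any one of 5 libraries, wild-type replicate 1 being the exception, and by limma-voom. The values were -0.60 without EWSR1-ERG replicate 1, -0.51 without EWSR1-ERG replicate 2, -0.66 without EWSR1-ERG replicate 3, -0.58 without wild-type replicate 2 and -0.38 without wild-type replicate 3. The tested rows with a log2 fold change above 0 were AC024175.7 (0.46), AC024175.8 (0.16) and AC024175.11 (0.74), with edgeR adjusted p values of 0.473, 0.708 and 0.297. In AC024175.11 the EWSR1-ERG pools spread widely, at 1.53, 2.97 and 4.91 CPM, against 1.69, 1.35 and 3.16 CPM in wild-type pools. AC024175.10, AC024175.22 and AC024175.23 were not tested and reached at most 1.54 CPM in any pool. Without EWSR1-ERG replicate 3, the library from another lane, 7 unnamed rows were lower, with AC024175.16 (-0.74, edgeR adjusted p = 0.0387) and AC024175.24 (-0.92, edgeR adjusted p = 0.0499) added and AC024175.21 lost. The rows outside the naming rule were picked after seeing their values.

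The unnamed rows were also summed and set against the protein-coding genes. For every 100 counts on protein-coding genes there were 2.85, 2.81 and 2.89 counts on unnamed rows in EWSR1-ERG pools, against 2.51, 2.55 and 2.64 in wild-type pools. The groups did not overlap (log2 ratio 0.15, two-sided exact permutation p = 0.1, the smallest possible, adjusted p = 0.2 over 6 ratios). Among the pools, wild-type replicate 3 was the highest of its group in 13 of 13 protein-coding genes and in 18 of 21 tested unnamed rows. EWSR1-ERG replicate 1 was the lowest of its group in 10 of 13 and in 16 of 21. Without these libraries 11 and 10 protein-coding genes were still called lower, the first without wild-type replicate 3 and the second without EWSR1-ERG replicate 1. Without EWSR1-ERG replicate 3 the count was 10.

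Nuclear genes of the respiratory complexes were lower as well. Of 86 nuclear oxidative phosphorylation subunit genes tested, 44 fell by edgeR and none rose, where 9.87% of all genes were called lower. None was higher at an unadjusted p under 0.05, nor was any called higher by DESeq2 or limma-voom. Their median log2 fold change was -0.37, which is 1.29-fold lower, and 85 of the 86 values were below 0. Single libraries moved this count far more than that of the mitochondrial genes. It was 13 without EWSR1-ERG replicate 2, 9 without wild-type replicate 2 and 20 without wild-type replicate 3, while the mitochondrial count was 9, 8 and 11 in the same fits. Calls over all genes also fell in these fits, to 1432, 981 and 1668 lower, against 1732 with all libraries. With all libraries DESeq2 called 36 of the 86 genes lower and limma-voom 43, against 1444 and 1711 over all genes.

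By complex, 27 of 40 nuclear genes of complex I fell (median log2 fold change -0.37), 2 of 4 genes of complex II (-0.36), 5 of 9 of complex III (-0.38), 6 of 16 of complex IV (-0.35) and 4 of 17 of complex V (-0.33). The complex I list was drawn up by gene symbol and includes ndufa4 (-0.22) and ndufa4l2 (-0.34), which were not called. Whether their products belong to complex I was not checked. In complex I the count was 6 without EWSR1-ERG replicate 2, 17 without EWSR1-ERG replicate 3, 3 without wild-type replicate 2 and 7 without wild-type replicate 3. Without EWSR1-ERG replicate 2 it was 0 in complex II, 2 in complex III and 0 in complex V, and without wild-type replicate 2 it was 1 in complex II, 1 in complex III and 0 in complex V. Without EWSR1-ERG replicate 3 or wild-type replicate 3 it was 1 in complex V. With all libraries DESeq2 called 18 of the 40 complex I genes lower and limma-voom 25. In complex V each of these tools called 5, and in complexes II, III and IV as many as edgeR. The mitochondrially encoded medians were -0.62 for complex I, -0.48 for complex IV and -0.75 for complex V, beside the value of mt-cyb for complex III. In complex I, ndufv1, which encodes the NADH-binding subunit, fell to 206 ± 18.9 CPM in EWSR1-ERG pools, against 283 ± 7.62 CPM in wild-type pools (SD, n = 3 each; -0.46, edgeR adjusted p = 0.00965). NDUFB2 (-0.58, edgeR adjusted p = 0.00442) and ndufa9 (-0.44, edgeR adjusted p = 0.00755) had the smallest p-values of that list. In complex II, sdhb, for the iron-sulfur subunit of succinate dehydrogenase, and sdhdb, for a membrane anchor, fell by 0.41 (edgeR adjusted p = 0.0145) and 0.43 (edgeR adjusted p = 0.0106) on the log2 scale. In complex III the Rieske iron-sulfur gene uqcrfs1 is listed under 2 identifiers on chromosome 7, which fell by 0.55 (ENSDARG00000077402, edgeR adjusted p = 0.00208) and 0.47 (ENSDARG00000007745, edgeR adjusted p = 0.00834). Whether these rows share reads was not tested. The core subunit gene uqcrc2b fell by 0.40 (edgeR adjusted p = 0.013). Without wild-type replicate 2 the calls of ndufv1 (-0.45), ndufa9 (-0.44), sdhdb (-0.45), uqcrc2b (-0.39) and the uqcrfs1 row ENSDARG00000007745 (-0.47) ended. Without EWSR1-ERG replicate 2 those of sdhb (-0.39), sdhdb (-0.38) and uqcrc2b (-0.38) ended.

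In complex IV, cox4i2, an isoform of the regulatory subunit 4, fell to 24.0 ± 4.60 CPM in EWSR1-ERG pools, against 44.3 ± 6.92 CPM in wild-type pools (SD, n = 3 each; -0.86, edgeR adjusted p = 0.00175). The structural subunit gene cox7a2a (-0.52, edgeR adjusted p = 0.00628) and 1 of 2 rows named cox5aa (ENSDARG00000088383, -0.50, edgeR adjusted p = 0.00639) followed. The other cox5aa row (ENSDARG00000017906) was not called (-0.27, edgeR adjusted p = 0.211). It had 653 ± 117 CPM in EWSR1-ERG pools and 787 ± 45.4 CPM in wild-type pools (SD, n = 3 each). In complex V, ATP5B, for the catalytic beta subunit, fell to 1618 ± 58.7 CPM in EWSR1-ERG pools, against 2123 ± 129 CPM in wild-type pools (SD, n = 3 each; -0.39, edgeR adjusted p = 0.0356). The stalk gene atp5j (-0.42, edgeR adjusted p = 0.0179) and the membrane subunit gene atp5mf (-0.46, edgeR adjusted p = 0.0143) fell too. The complex V row ATP5J2 (ENSDARG00000087461) lay above 0 and was not called (0.22, edgeR adjusted p = 0.63). It had 3.96 ± 0.258 CPM in EWSR1-ERG pools and 3.39 ± 0.406 CPM in wild-type pools (SD, n = 3 each). Whether it is a second row of atp5mf was not checked. The 3 complex IV genes kept their calls without any single library. The call of atp5mf ended without EWSR1-ERG replicate 2 (-0.46), wild-type replicate 2 (-0.48) or wild-type replicate 3 (-0.34). That of atp5j ended without the same libraries (-0.39, -0.43 and -0.34) or EWSR1-ERG replicate 3 (-0.41). That of ATP5B ended without EWSR1-ERG replicate 1 (-0.36), EWSR1-ERG replicate 2 (-0.40), EWSR1-ERG replicate 3 (-0.41) or wild-type replicate 2 (-0.40). It also ended when genes with low counts were kept in the fit (-0.38, edgeR adjusted p = 0.0504).

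**Figure D4:**
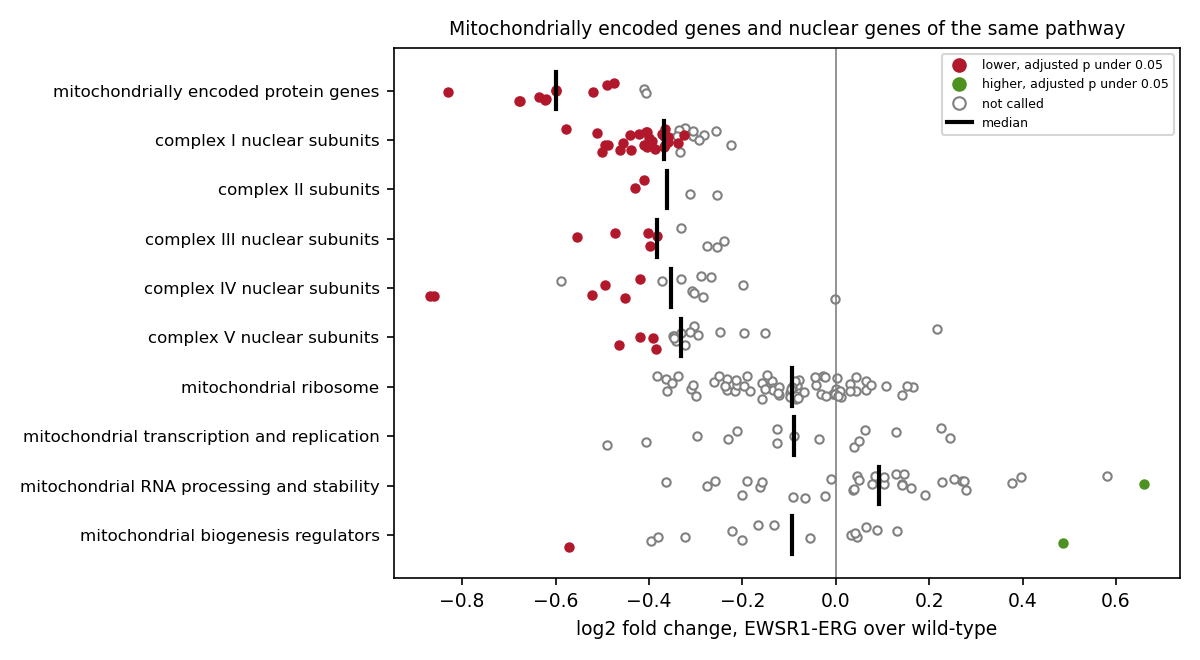
Log2 fold change of EWSR1-ERG over wild-type for each tested gene of the mitochondrially encoded protein genes and of 9 nuclear lists, with the median of each list as a bar; vertical scatter within a list has no meaning. The medians are -0.60 for the mitochondrially encoded genes, -0.38 to -0.33 for the subunit lists and -0.09 to 0.09 for the other lists.

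Mitochondrially encoded subunits were also set against the nuclear partners of the same complex. The summed CPM of mitochondrially encoded over nuclear encoded subunits of complex V was 0.518, 0.549 and 0.515 in EWSR1-ERG pools, against 0.724, 0.710 and 0.756 in wild-type pools. This was the widest separation of the complexes, 1.38-fold lower. Most of the mitochondrial sum came from mt-atp6, with 2824 of 3314 CPM in EWSR1-ERG replicate 1 and 4774 of 5595 CPM in wild-type replicate 1. The complex V ratio is thus not separate from the decrease of mt-atp6. The ratio for complex I was 1.80, 1.92 and 1.77 in EWSR1-ERG pools and 2.01, 2.08 and 2.29 in wild-type pools. Its nuclear sum includes ndufa4 and ndufa4l2. For complex III it was 1.69, 1.65 and 1.63 in EWSR1-ERG pools and 1.74, 1.80 and 1.97 in wild-type pools. For complex IV it was 5.72, 6.14 and 5.54 in EWSR1-ERG pools and 6.38, 6.41 and 6.48 in wild-type pools. The groups did not overlap in any of these ratios, and no test is given for them because they are scores over chosen genes. The size of a ratio depends on gene lengths and is read only between groups.

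**Figure D5:**
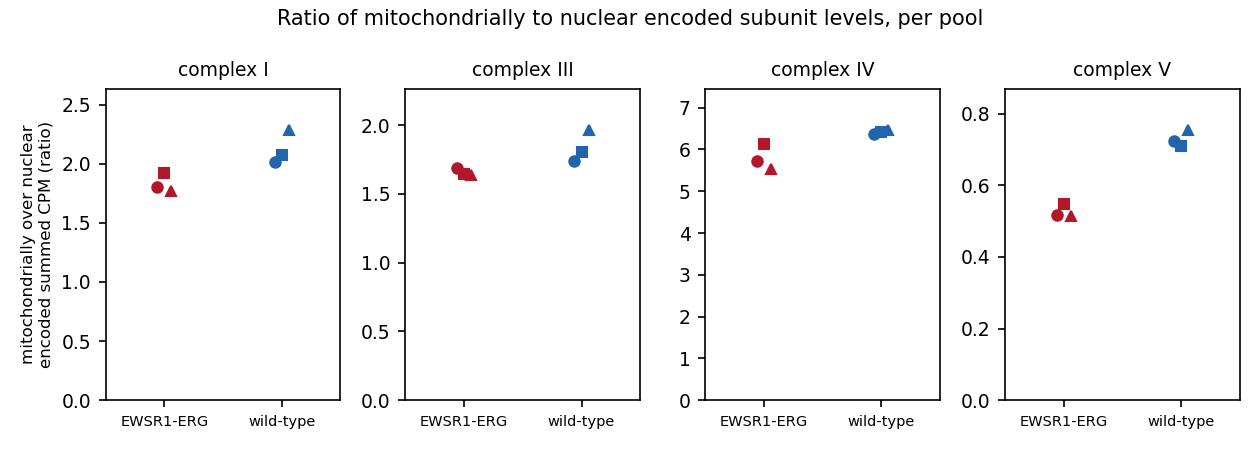
Ratio of summed CPM of mitochondrially encoded to nuclear encoded subunit genes for complexes I, III, IV and V, with 1 point per pool (circle, square and triangle for replicates 1, 2 and 3) and each axis starting at 0. All 4 ratios are lower in every EWSR1-ERG pool than in every wild-type pool, with complex V at 0.515 to 0.549 against 0.710 to 0.756.

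Genes that serve the making of mitochondrial RNA and protein were counted against the same background, in which 9.87% of all genes tested were called lower and 7.46% higher. Of 68 mitochondrial ribosomal protein genes tested, edgeR, DESeq2 and limma-voom each called 0. The median log2 fold change was -0.09, and 52 of the 68 values were below 0. At an unadjusted p under 0.05 edgeR had 6 lower and 0 higher. Without EWSR1-ERG replicate 1, EWSR1-ERG replicate 3 or wild-type replicate 1, 1 of them was called lower. Among 15 genes of mitochondrial DNA replication and transcription, which include the packaging and transcription factor gene tfam (-0.09, edgeR adjusted p = 0.719), 0 were called by any of the 3 tools and 1 was lower at an unadjusted p under 0.05 by edgeR; the median was -0.09. Of 34 genes for processing, modifying and translating mitochondrial RNA, 1 rose and 0 fell, with a median of 0.09. Without EWSR1-ERG replicate 1, 2 were called higher. At an unadjusted p under 0.05, edgeR had 3 higher and 0 lower, and DESeq2 and limma-voom each called 0 lower. The gene that rose was gfm1, a mitochondrial translation elongation factor, at 97.4 ± 5.99 CPM in EWSR1-ERG pools and 61.7 ± 3.25 CPM in wild-type pools (SD, n = 3 each; 0.66, SE 0.104, edgeR adjusted p = 0.000537). Of 16 regulators of mitochondrial biogenesis and metabolism, the nuclear receptor gene pparda fell (-0.57, edgeR adjusted p = 0.0402) and the growth regulator gene myca rose (0.49, edgeR adjusted p = 0.00458). The call of pparda ended without any one of 5 libraries, with EWSR1-ERG replicate 3 the exception (-0.46 without EWSR1-ERG replicate 1, -0.59 without EWSR1-ERG replicate 2, -0.63 without wild-type replicate 1, -0.59 without wild-type replicate 2 and -0.50 without wild-type replicate 3), and by DESeq2. Without EWSR1-ERG replicate 3, 2 of these regulators were called lower. Summed, the replication and transcription genes stood at 173 to 178 CPM in EWSR1-ERG pools and 181 to 191 CPM in wild-type pools. The RNA processing list summed to 630 to 662 CPM in EWSR1-ERG pools and 584 to 600 CPM in wild-type pools. Neither of these sums overlapped between groups, while those of the ribosomal protein and regulator lists did. No test is given for the sums.

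Markers of several tissues moved beside the mitochondrial share, and their counts stand against 9.87% of all genes tested called lower and 7.46% higher. Of 16 photoreceptor genes, 15 fell, with a summed level of 1048 to 1198 CPM in EWSR1-ERG pools and 6940 to 7397 CPM in wild-type pools. Neuron genes summed to 1064 to 1350 CPM in EWSR1-ERG pools and 1511 to 1957 CPM in wild-type pools, with 5 of 14 lower. Heart genes summed to 119 to 144 CPM in EWSR1-ERG pools and 173 to 175 CPM in wild-type pools (5 of 9 lower, 2 higher), and liver genes to 8160 to 9095 CPM in EWSR1-ERG pools and 10784 to 14473 CPM in wild-type pools (8 of 14 lower, 4 higher). Myeloid genes summed to 421 to 651 CPM in EWSR1-ERG pools and 144 to 160 CPM in wild-type pools (11 of 12 higher), and erythroid genes to 8041 to 9244 CPM in EWSR1-ERG pools and 4646 to 6720 CPM in wild-type pools (8 of 11 higher). Skeletal muscle genes overlapped in their sum, at 82590 to 111803 CPM in EWSR1-ERG pools and 92605 to 105801 CPM in wild-type pools (3 of 21 higher). Genes of ionocytes, the mitochondria-rich cells of the skin, overlapped too, at 1134 to 1228 CPM in EWSR1-ERG pools and 1072 to 1164 CPM in wild-type pools (4 of 13 higher). No gene of these 8 lists was at 0 in all pools. Whether these shifts have a part in the lower mitochondrial level was not tested.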

How the data were processed

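The authors deposited, for each of 6 libraries, a table of the count of reads per Ensembl gene, and Bowtie2, SAMtools, DESeq and the build Zv9 are named in the submitters' processing notes. The sources used here do not give versions, annotation release, counting tool, strand setting or read type. The deposited values are named expected counts here, because the last line of each table, a size factor, is not whole; every gene value was whole, so rounding changed nothing. The 2 lines per table that name no gene were left out. Coordinates and sequences were not used here. Members and lists were chosen with earlier results of these data known.

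Genes passing filterByExpr (minimum count 10, minimum total 15) were scaled with TMM factors and compared with edgeR 4.0.16 (quasi-likelihood F test, robust, Benjamini-Hochberg over 17557 genes) in R 4.3.3. The SE is the absolute log2 fold change divided by the square root of F, an approximation. Fold changes divide EWSR1-ERG by wild-type. A count of 0 allows up to 3 counts, or 0.225 to 0.629 CPM, for counting error only. Alternatives used DESeq2 1.42.0, limma-voom (limma 3.58.1), other scalings and filters, a replicate block and each library left out. The edgeR script was tested on simulated data. The plan held results for ribosomal and transfer RNA rows; as the tables do not tell these apart, the unnamed rows took their place, a choice made after seeing the data. Named were all protein-coding members, unnamed rows that were called or among the 3 most abundant, and up to 3 called genes per nuclear list and direction with the smallest p. The cox5aa row that was not called and the row ATP5J2 were added after seeing their values. Of 222 list entries, 19 were not matched. Symbols are as in the tables, with atp5mf named by the gene name table.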

Additional observations from a re-analysis of the deposited data

How the results depend on the processing

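The lower mitochondrial share kept its direction and size in every alternative that could change its log2 ratio. This ratio was -0.54 over all libraries and -0.58 to -0.49 with single libraries left out. The replicate block could not change it, because with 3 pools per group the mean difference stays the same. The count of lower protein-coding genes, 11, ran from 8 to 11 with single libraries left out and from 11 to 13 in the other 7 alternatives, and that of lower unnamed rows, 6, from 4 to 7 and from 5 to 6. Over all genes, the counts with single libraries left out ran from 981 to 1668 lower, against 1732, and from 646 to 1334 higher, against 1309. The nuclear lists together had 45 lower genes, and 9 to 42 with single libraries left out; they had 2 higher genes, and 2 to 3. The summed unnamed rows relative to protein-coding genes kept their direction, at 0.14 to 0.17. The ratio of mt-nd6 to the heavy-strand genes ran from -0.0906 to 0.0646 and turned its sign at 0.00497 without EWSR1-ERG replicate 2, 0.0234 without EWSR1-ERG replicate 3 and 0.0646 without wild-type replicate 3; AC024175.17 (-0.05) ran from -0.14 to 0.13, the last without wild-type replicate 3. The cause was not tested. Same-numbered pools had correlations of deviations of -0.15, 0.10 and -0.06, within the range of differently numbered pools (-0.22 to 0.22). With 3 pools per group these values cannot decide whether the numbers pair the pools. With the replicate block 12 protein-coding genes were lower and 1482 genes in all, against 1066 higher. Row AC024175.10 and the other 2 untested rows are limited by depth.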
